A study of Xenopus laevis with 4 samples.

Results

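The genes described here carry the symbols of protein subunits of the cytoplasmic ribosome of Xenopus laevis, the African clawed frog. They were chosen by symbol: names of the rpl, rps, rplp or rpsa type in the platform annotation, read from probe sets that name 1 gene and averaged a signal of 100 or more over the 4 arrays. The brightest probe set stood for each gene. Of 73 genes that matched by symbol, 70 passed, among 5201 genes of the whole array with such a probe set. There were 45 genes of the large subunit and 25 of the small subunit. The 45 include the like-protein paralogs rpl7l1.L and rpl22l1.L, placed there by symbol alone. By gene copy, 33 carried the suffix .L, 36 the suffix .S and 1, rps9, neither. The suffixes mark the homeologs, the copies of a gene on the long and short chromosomes of this allotetraploid species. The annotation lists both rps9 and rps9.S, and they were kept as separate genes. Whether they are homeologs was not tested, and they are not among the homeolog pairs below. Rps9.S was read from a probe set whose name marks it as open to cross-hybridisation.

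Whole embryos at stage 12, late in gastrulation, had received xSGK1 morpholinos (40 ng of morpholino1 with 40 ng of morpholino2) or 80 ng of a control morpholino at the 4-cell stage. Morpholinos are antisense oligonucleotides that block translation or splicing of a transcript, and xSGK1 is the frog form of SGK1, a serine/threonine kinase activated by PI3K signalling. All embryos came from in vitro fertilization and were injected radially, and no uninjected embryos were among the samples analysed. Both injections were done in each of 2 independent experiments, with 1 array apiece (n = 2 per group), to learn which transcripts depend on SGK1. Signals are linear array intensities scaled to a trimmed mean of 500 per array. Changes are differences of log2(signal + 16), xSGK1 minus control, a scale that understates dim probe sets, and signals of different probe sets are not set against each other.

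The ribosome joins a large subunit, which forms peptide bonds and carries the tunnel through which the new chain leaves, to a small subunit, which reads the mRNA. Vertebrate mRNAs for its proteins start with a 5' terminal oligopyrimidine tract (TOP), through which growth signalling by mTORC1 and the binding protein LARP1 control their translation and stability. In the early frog embryo most translation runs on ribosomes laid down in the egg, while ribosomal protein mRNA accumulates again once the embryo's own genome is active.

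Ribosomal protein transcripts read slightly lower in xSGK1 embryos than in control embryos of the same experiment, across both subunits and both gene copies. The median change of the 70 genes was -0.29, which is 81.6% of the control level on the offset scale. The middle part of the genes, between the 25th and 75th percentiles, lay between -0.42 and -0.18. The medians were -0.27 in experiment 1 and -0.31 in experiment 2. The same median over all 9251 probe sets tested was 0.04. Over 1154 bright probe sets (mean of 2000 or more) without a ribosomal protein it was -0.03. In both experiments 67 genes were lower and 0 were higher, where 31.9% of all probe sets and 41.0% of these bright ones were lower in both. In these whole-embryo samples, fewer cells with much of a transcript and less transcript per cell cannot be told apart.

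The shift was small gene by gene. Only 6 genes reached a mean reduction of 1.5-fold, rps24.L, rpsa.S, rpl27a.L, rpl4.S, rpl23a.S and rpl29.L, and 1 of them, rpl4.S, did so in each experiment. At the other end, 10 genes differed by less than 1.1-fold. In limma's fit with experiment as a block, 6 of the 70 fell at an adjusted p under 0.05 and 0 rose. In that fit 3.91% of all probe sets were called lower and 4.09% higher. The 6 calls depend on the settings. The blocked fit called 0 of the 70 after quantile normalization or without the intensity trend, and 15 after cyclic loess. Of all probe sets called in the blocked fit after cyclic loess, 55.6% were lower. Counts over all probe sets in these settings are given further below. In the fit without the block, in which the difference between experiments counts as error, 0 of the 70 were called and 0% of all probe sets. There the smallest adjusted p was 0.999, and 1 member had an unadjusted p under 0.05, against 41 with the block. Over all 9251 probe sets, 334 had such a p without the block and 2792 with it. With 2 arrays per group the smallest p of an exact permutation test that ignores the experiments is 0.333. Permuting within experiments would allow fewer arrangements.

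**Figure D1:**
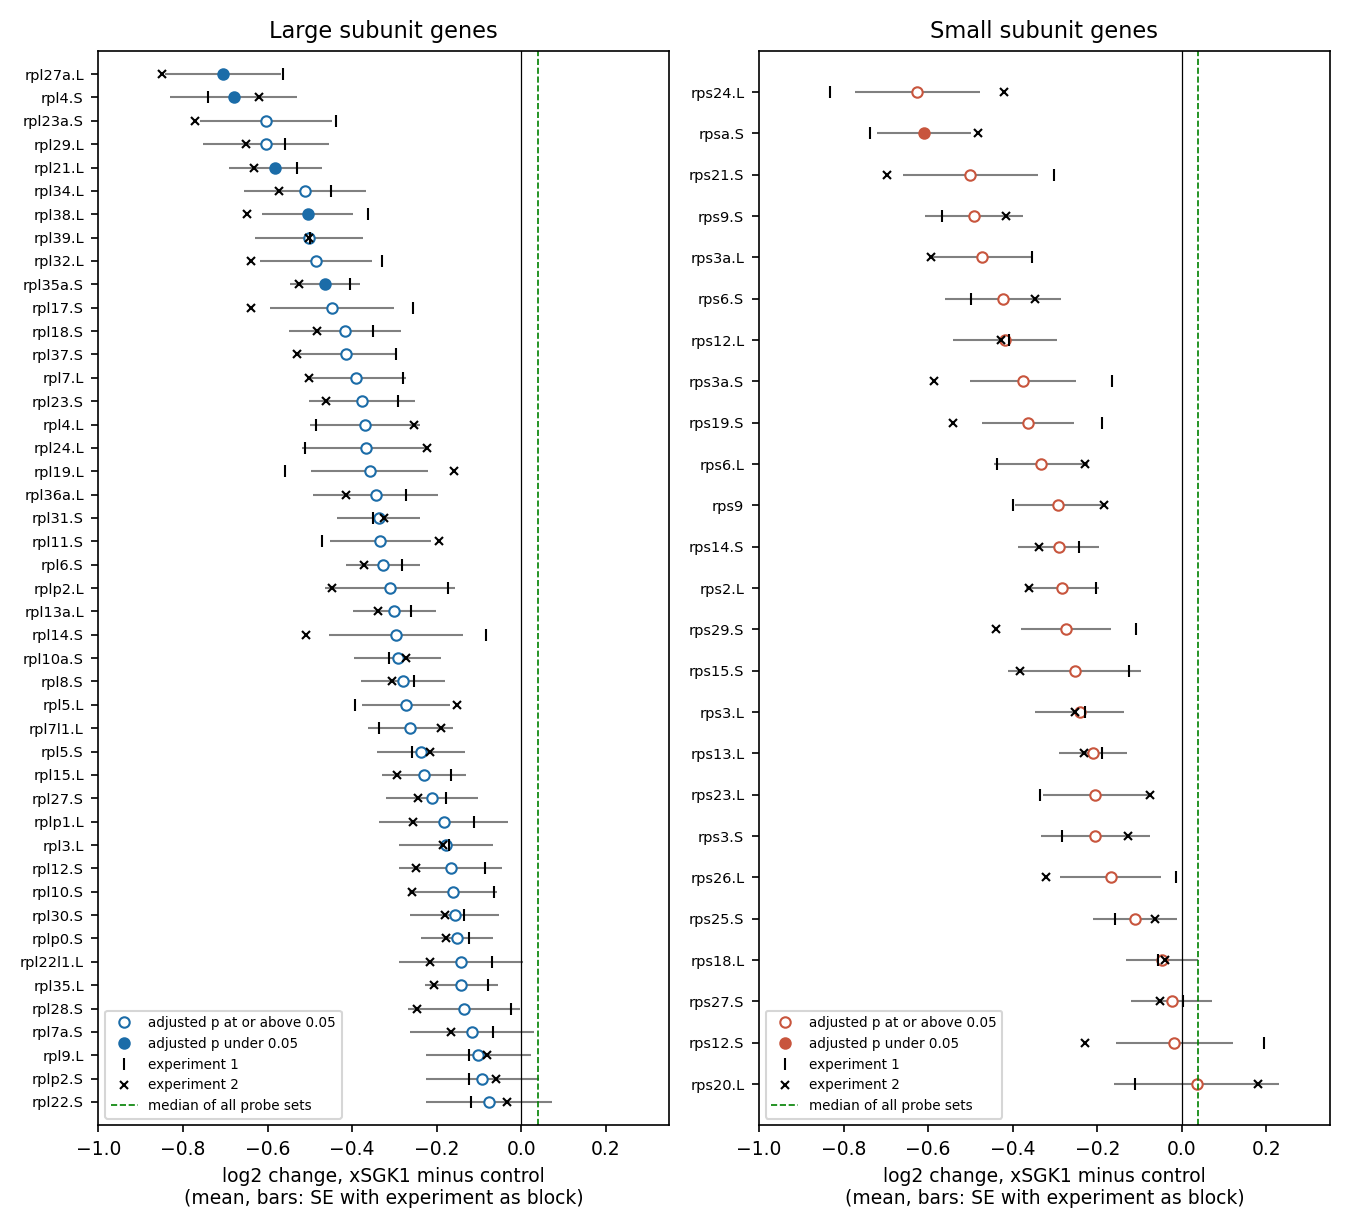
Log2 change, xSGK1 minus control, of each of the 45 large subunit genes (left) and 25 small subunit genes (right), sorted by change. Circles are means with the standard error of the fit with experiment as a block, filled where the adjusted p is under 0.05 (6 genes); bars and crosses mark experiments 1 and 2. The dashed line is the median of all probe sets, 0.04, and 67 of the 70 genes lie below 0 in both experiments.

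Of the 6 genes that fell in the blocked fit, 5 belong to the large subunit, which holds 45 of the 70 genes. The mRNA of rpl27a.L, a large subunit protein, measured 1541 and 788 in xSGK1 embryos of experiments 1 and 2, against 2284 and 1433 in control embryos. Its change was -0.71 ± 0.14 (SE, adjusted p = 0.0362). The xSGK1 array was lower within each experiment, but the xSGK1 array of experiment 1 still lay above the control array of experiment 2, so the groups overlap.

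Rpl4 has a loop that lines the peptide exit tunnel. Its rpl4.S transcript measured 783 and 244 in xSGK1 embryos, against 1319 and 384 in control embryos. The change was -0.68 ± 0.15 (adjusted p = 0.0496), and again the groups overlap across experiments. The transcript of rpl21.L gave 2547 and 1631 in xSGK1 embryos, against 3687 and 2536 in control embryos, a change of -0.58 ± 0.11 (adjusted p = 0.0336). Here the upper xSGK1 array and the lower control array were nearly level. The brightest probe sets of rpl21.L and rpl35a.S were left out as cross-hybridising in an alternative setting, and neither gene was called there.

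Rpl38 is known from the mouse, where its loss alters the axial skeleton and the translation of Hox mRNAs. In xSGK1 embryos rpl38.L measured 4950 and 2871, against 6364 and 4508 in control embryos. It changed by -0.50 ± 0.11 (adjusted p = 0.0446), lower within each experiment and overlapping across them. Rpl35a, whose human gene is mutated in some families with Diamond-Blackfan anaemia, showed no overlap at its brightest probe set. There the rpl35a.S transcript measured 6649 and 5068 in xSGK1 embryos, against 8805 and 7302 in control embryos, a change of -0.46 ± 0.08 (adjusted p = 0.0315). A dimmer probe set of rpl35a.S measured 4554 and 2908 in xSGK1 embryos, against 5573 and 4021 in control embryos (-0.38 ± 0.10, adjusted p = 0.0694). Another, far dimmer, changed by -0.14 ± 0.18 (adjusted p = 0.615). In both of these the groups overlap.

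The small subunit gene that fell in the blocked fit was rpsa.S, whose protein sits near the mRNA exit site and is also known as the laminin receptor precursor. It measured 2621 and 2594 in xSGK1 embryos, against 4379 and 3632 in control embryos. Both xSGK1 arrays lay below both control arrays, and the change was -0.61 ± 0.11 (adjusted p = 0.033).

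Several genes had changes as large as some of these without passing the threshold. For rps24.L, also a Diamond-Blackfan gene in people, the signals were 1342 and 1104 in xSGK1 embryos, against 2401 and 1483 in control embryos, a change of -0.63 ± 0.15 (adjusted p = 0.0562). The transcript of rpl23a.S, a protein at the tunnel exit where factors that receive the nascent chain dock, changed by -0.60 ± 0.16 (adjusted p = 0.0679). That of rpl29.L changed by -0.60 ± 0.15 (adjusted p = 0.0607). On the small subunit rps9.S, at the mRNA entry, changed by -0.49 ± 0.12 (adjusted p = 0.0557) and rps21.S, a neighbour of rpsa, by -0.50 ± 0.16 (adjusted p = 0.104). Each of these 5 was lower in both experiments.

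Apart from rpl35a.S, the genes with the brightest probe sets in each subunit changed by between -0.36 and -0.14, less than the genes named above. Rps2.L, at the mRNA entry, measured 7000 and 5167 in xSGK1 embryos, against 8061 and 6644 in control embryos (-0.28 ± 0.09, adjusted p = 0.0939). Rps13.L measured 7270 and 5203 in xSGK1 embryos, against 8284 and 6107 in control embryos (-0.21 ± 0.08, adjusted p = 0.147). Rps19.S, the most often mutated gene of Diamond-Blackfan anaemia in people, measured 6972 and 3929 in xSGK1 embryos, against 7942 and 5720 in control embryos (-0.36 ± 0.11, adjusted p = 0.0922). In all 3 the arrays of experiment 2 were lower than the arrays of the same injection in experiment 1. Rpl35.L, at the tunnel exit, and rplp0.S, the base of the stalk that recruits elongation factors, were level between experiments. Rpl35.L measured 5626 and 5597 in xSGK1 embryos, against 5941 and 6457 in control embryos, and rplp0.S 5224 and 5451, against 5696 and 6169. Their changes, -0.14 ± 0.09 and -0.15 ± 0.08, did not pass (adjusted p = 0.315 and 0.278), although both xSGK1 arrays lay below both controls for each gene. Across the 70 genes the change had little relation to the mean log2 signal (Pearson 0.06, Spearman 0.12, a description over genes that share the arrays).

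The 10 genes with changes under 1.1-fold were 5 of the large and 5 of the small subunit. Rps12.S measured 2745 and 1980 in xSGK1 embryos, against 2399 and 2324 in control embryos, higher in experiment 1 and lower in experiment 2. Rps27.S measured 4269 and 3152 in xSGK1 embryos, against 4260 and 3266 in control embryos, level in both experiments. The head protein gene rps18.L, named here after its values were seen, was also nearly level, at 5897 and 4590 in xSGK1 embryos against 6130 and 4715 in control embryos. On the large subunit rpl22.S, rplp2.S and rpl9.L had changes of -0.08 ± 0.15, -0.09 ± 0.13 and -0.10 ± 0.12. None of these 6 passed (adjusted p between 0.615 and 0.945).

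The dimmest member, rps20.L, lay just inside the signal threshold, with a mean of 134. It measured 117 and 156 in xSGK1 embryos, against 127 and 136 in control embryos. A brighter probe set shared by both copies of rps20 measured 12200 and 9979 in xSGK1 embryos, against 12614 and 11983 in control embryos (-0.16 ± 0.08, adjusted p = 0.242). Just outside the threshold were rpl28.L with a mean of 74.5 and rps10.L with 70.2, while rpl3l.L, with 2.75, was far below it. These 3 were not tested.

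By position on the ribosome, the medians ranged between -0.42 and -0.17. The groups were set up after values had been seen, and their genes get no test as a list. The 6 genes of the mRNA exit and platform (rpsa, rps21, rps3a in both copies, rps14 and rps26) had a median of -0.42, which was -0.27 in experiment 1 and -0.53 in experiment 2. The 6 genes around the tunnel exit (rpl17, rpl19, rpl23a, rpl31, rpl35 and rpl39) had a median of -0.40, at -0.39 and -0.41 in experiments 1 and 2. The 5 genes at the mRNA entry had -0.28. Rpl5 and rpl11, which carry the 5S rRNA into the subunit and also bind the p53 regulator Mdm2, had -0.27 over 3 genes.

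The stalk (4 genes) lay nearer to 0, at -0.17. So did the proteins next to the peptidyl transferase centre (rpl3, rpl8 and rpl10) and the head of the small subunit (8 genes), both at -0.18. In experiments 1 and 2 the stalk had -0.12 and -0.22, the peptidyl transferase group -0.17 and -0.26, and the head -0.12 and -0.31. The medians of all 70 genes were -0.27 and -0.31. Across these and other groups, 14 genes have human counterparts in which mutations were found in Diamond-Blackfan anaemia, such as rps19, rps24, rpl5 and rpl35a, and their median was -0.27. Within each of these groups every gene was lower in both experiments, except 2 of the 8 head genes, rps12.S and rps20.L, and 1 of the 14 Diamond-Blackfan genes, rps27.S.

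Large and small subunit genes had similar medians. The value was -0.31 for the large subunit and -0.28 for the small subunit, a difference of -0.03. That difference was -0.05 in experiment 1 and 0.05 in experiment 2, so its sign turned between experiments. All 45 large subunit genes were lower in both experiments, and 22 of the 25 small subunit genes. The 3 others were rps12.S, rps20.L and rps27.S. In the blocked fit 5 of the 45 large subunit genes and 1 of the 25 small subunit genes fell. Over all probe sets the share called lower was 3.91%.

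The medians of the .L and .S genes were close as well. The 33 genes with the suffix .L had a median of -0.31 and the 36 with .S had -0.29. The difference of these medians was -0.08 in experiment 1 and 0.04 in experiment 2. In the blocked fit 3 of the 33 .L genes and 3 of the 36 .S genes fell. Over all probe sets the share called lower was 3.91%. Most genes were measured through 1 copy, so these medians compare different genes.

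Both copies were measured separately for 7 genes, and there the 2 copies of the same gene can be set side by side. A probe set that names 1 copy may still bind the transcript of the other, and how far this happened was not tested. For rps3a both copies rest on probe sets that the array's naming marks as open to cross-hybridisation. Both were lower on average in 7 of 7, against 29.8% of the 655 homeolog pairs on the array. The unsigned .L minus .S difference had a median of 0.10, against 0.23 over all pairs, which were not matched to the 7 by signal. A separate limma fit tested that difference over all 655 pairs. It called 0 of the 7 with the experiment as a block, also at an unadjusted p under 0.05, while 9.47% of all pairs were called. Without the block 0 of all pairs were called, and 27 had an unadjusted p under 0.05, 0 of them among the 7.

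The widest gap was in rps12, a protein of the small subunit head, with changes of -0.42 for rps12.L and -0.02 for rps12.S. Rps12.L measured 1863 and 854 in xSGK1 embryos, against 2480 and 1153 in control embryos, lower within each experiment, unlike rps12.S. The difference of -0.40 had a 95% interval between -0.84 and 0.04 (adjusted p = 0.255). For rpl4 the .S copy had the larger change. Rpl4.L measured 1713 and 1034 in xSGK1 embryos, against 2406 and 1236 in control embryos. Its change of -0.37 stood against -0.68 for rpl4.S, a difference of 0.31 with an interval between -0.09 and 0.71 (adjusted p = 0.359). For the stalk protein rplp2 the difference was -0.22, between -0.65 and 0.21 (adjusted p = 0.577). In rpl5, rps3, rps3a and rps6 the differences lay between -0.10 and 0.09. For rps3a, dimmer probe sets without the cross-hybridisation mark lay further apart, at -0.52 ± 0.13 for rps3a.L and -0.34 ± 0.10 for rps3a.S. The intervals leave room for unequal changes of a size like that of the shift itself.

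**Figure D2:**
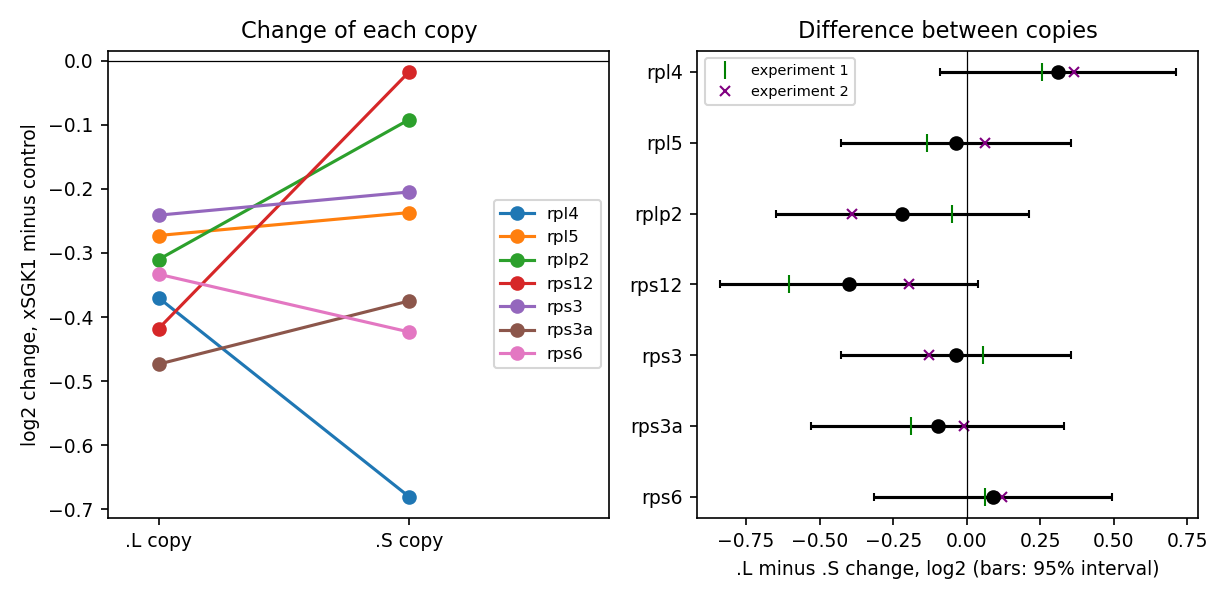
Left, log2 change (xSGK1 minus control) of the .L and .S copy of the 7 ribosomal protein genes measured through both. Right, the .L minus .S difference in change with its 95% interval from the fit with experiment as a block, and its value in each experiment; every interval includes 0.

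Other probe sets for ribosomal proteins lay outside the 70. Of the 17 that name several genes, mostly both copies of 1 gene, 12 name a member and 5 do not. They were lower in both experiments in 17 of 17, against 31.9% of all probe sets, with a median of -0.34. Of these 17, 2 fell in the blocked fit, where 3.91% of all probe sets were called lower. The one shared by rpsa.L and rpsa.S measured 2144 and 2244 in xSGK1 embryos, against 3526 and 3100 in control embryos (-0.59 ± 0.12, adjusted p = 0.0373), with both xSGK1 arrays below both controls. The one shared by rpl21.L and the locus MGC80700 changed by -0.59 ± 0.12 (adjusted p = 0.042). The probe set for both copies of rpl4 changed by -0.43 ± 0.10 (adjusted p = 0.0517). Among 13 dimmer probe sets of single members 11 were lower in both experiments, with a median of -0.28, and 0 were called. They included a second probe set of rpl38.L, at -0.72 ± 0.20 (adjusted p = 0.0789). Probe sets of rps29.S disagreed, with changes of -0.27, -0.28 and 0.09.

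For these genes the experiments differed from each other by more than the injections did. Over the 70 genes the median of experiment 2 minus experiment 1 was -0.51, where all probe sets had 0.01. In the limma fit with injection and experiment as terms, 50 genes were lower in experiment 2 and 0 higher, while 19.9% of all probe sets were called lower. The median was -0.52 within the xSGK1 arrays and -0.52 within the control arrays. The largest differences were -1.68 for rpl4.S, -1.20 for rplp2.L and -1.18 for rpl22l1.L, the gene of a protein like rpl22. For rpl22l1.L experiment 2 gave 407 in xSGK1 and 476 in control embryos, and experiment 1 gave 993 in xSGK1 and 1043 in control embryos.

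For 49 of the 70 genes the 4 arrays fell in the same order, with control of experiment 1 highest, then xSGK1 of experiment 1, control of experiment 2, and xSGK1 of experiment 2 lowest. Among all probe sets 13.6% had that order. In 51 genes the xSGK1 array of experiment 1 was thus brighter than the control array of experiment 2. Both xSGK1 arrays lay below both control arrays in 18 genes and above both in 0. Of all 9251 probe sets, 13.8% had both xSGK1 arrays below and 1511 had both above. Among the 1154 bright probe sets without a ribosomal protein, 227 had both below and 126 both above. With all 4 arrays the median change was -0.29 with or without the block, but it moved when 1 array was left out. In the fit without the block it was -0.01 without the xSGK1 array of experiment 2 and -0.07 without the control array of experiment 1. It was -0.55 without the xSGK1 array of experiment 1 or without the control array of experiment 2. Leaving out 1 array without the block unbalances the experiments, so part of the difference between them enters these medians. Within experiments 1 and 2 the medians were -0.27 and -0.31.

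**Figure D3:**
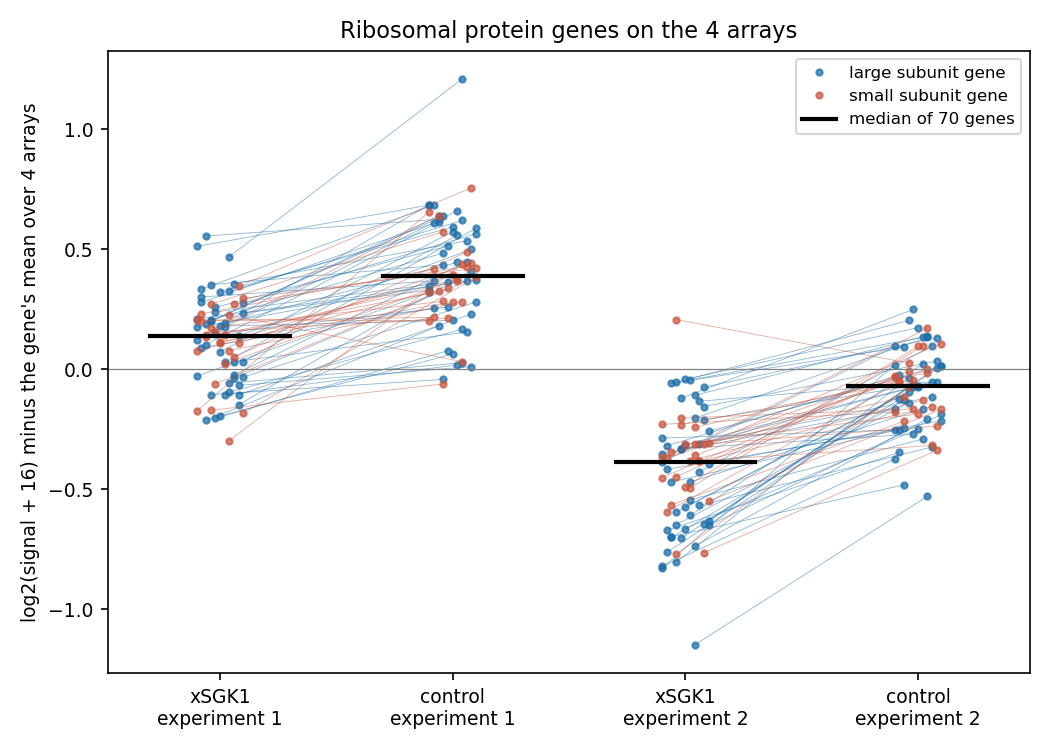
Log2(signal + 16) of each of the 70 genes on each array, relative to that gene's mean over the 4 arrays, with lines joining the 2 arrays of an experiment and black bars for the median. Within each experiment the xSGK1 median is the lower one, and the xSGK1 array of experiment 1 lies above the control array of experiment 2.

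The experiment difference was not called in 20 of the 70 genes, among them rpl5 in both copies, rpl6.S, rpl10.S, rpl12.S, rplp0.S and rpsa.S. These 20 were described after their values were seen. Their median injection change was -0.25, and 18 were lower in both experiments, against 31.9% of all probe sets. Choosing genes with a small experiment difference itself favours groups that do not overlap. The share of such groups among all probe sets chosen alike was not determined. In 15 of the 20 genes both xSGK1 arrays lay below both control arrays. Rpl6.S, for example, measured 4491 and 4758 in xSGK1 embryos, against 5467 and 6161 in control embryos (-0.33 ± 0.09, adjusted p = 0.0731), and rpl5.L 3672 and 4090, against 4829 and 4545 (-0.27 ± 0.10, adjusted p = 0.146). Over all 70 genes the injection change and the experiment difference had a Pearson coefficient of 0.40 and a Spearman coefficient of 0.38, over genes measured on the same 4 arrays.

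**Figure D4:**
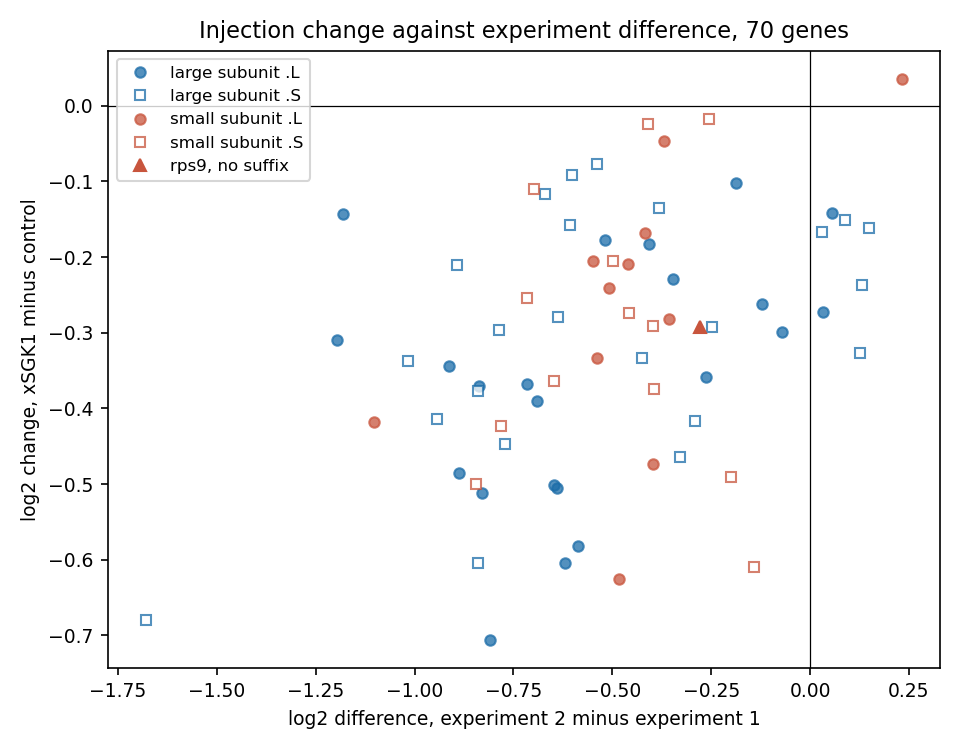
Log2 change by injection (xSGK1 minus control, vertical) against the difference between experiments (experiment 2 minus experiment 1, horizontal) for the 70 genes, with colours for the subunits and symbols for the copies. Genes whose experiments were level, near 0 on the horizontal axis, mostly lie below 0 on the vertical axis.

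Other measures also differed between the arrays. The beta-actin 3' to 5' signal ratio, a sign of RNA quality and labelling, was 3.38 in xSGK1 and 3.11 in control embryos of experiment 1, and 2.06 in xSGK1 and 2.24 in control embryos of experiment 2. It thus differed between experiments, without 1 direction for the injection. That of GAPDH was 17.7 in xSGK1 and 16.6 in control embryos of experiment 1, and 15.6 and 16.4 in those of experiment 2. Of 23 marker genes that were measured, 6 marked ectoderm. Their summed signal was 7586 and 3468 in xSGK1 embryos, against 10539 and 6192 in control embryos. This is the array order of most ribosomal protein genes, but among the 6 only the 2 copies of krt12.4, an epidermal keratin of the embryo, had it. The copy krt12.4.L measured 1402 and 75.4 in xSGK1 embryos, against 3922 and 974 in control embryos. Sox2.L, sox3.L, sox3.S and tfap2a.L were higher in xSGK1 than in control embryos in experiment 1 and lower in experiment 2. Tfap2a.L measured 1682 and 1018 in xSGK1 embryos, against 980 and 1357 in control embryos. The oocyte gene zp2.L had the reverse order, at 1080 and 1629 in xSGK1 embryos, against 745 and 1475 in control embryos. The mesoderm marker tbxt.S lay between 2580 and 4018 and the sums of 5 endoderm genes between 2666 and 3007. Of these 5, sox17a.L also had the array order of most ribosomal protein genes. It measured 530 and 451 in xSGK1 embryos, against 587 and 494 in control embryos. The copies of the organizer gene gsc summed to 186 and 157 in xSGK1 embryos, against 238 and 284 in control embryos, with both xSGK1 arrays below both controls. The 8 blood, lens and neuron genes summed to between 123 and 137, with no single one above 39.0. The part of RNA quality or of tissue make-up in the ribosomal protein differences was not tested.

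Other genes of the translation machinery were set beside the members, from lists chosen with earlier results of these data known. Fau.L, which encodes a small subunit protein under another symbol, resembled the members, at 3954 and 2295 in xSGK1 embryos against 4826 and 3148 in control embryos (-0.37 ± 0.10, adjusted p = 0.0793). The 19 elongation factors and other genes with TOP mRNAs had a median of -0.07. In both experiments 11 of them were lower, against 31.9% of all probe sets and 41.0% of the bright ones without a ribosomal protein. Of the 19 genes 1 fell in the blocked fit and 0 rose, near the 3.91% of all probe sets called lower. Eef1g.L, a subunit of the elongation factor that recharges eEF1A, measured 2956 and 4449 in xSGK1 embryos, against 4580 and 6129 in control embryos (-0.54 ± 0.10, adjusted p = 0.0315). Its other copy, eef1g.S, was higher in both experiments, at 2348 and 2232 in xSGK1 embryos against 1768 and 2142 in control embryos (0.23 ± 0.13, adjusted p = 0.285).

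The 40 genes with symbols that start with eif, initiation factors and some regulators such as eif4ebp2.S, also had a median of -0.07. Eif3e.L, eif3l.L, eif4b.S and eif2s3.S are also among the 19 above. Of the 40 genes 18 were lower in both experiments, against the same 31.9% and 41.0%. In the blocked fit 1 fell and 0 rose, also near the 3.91% of all probe sets called lower. That gene was eif4g1.S, the scaffold of the cap-binding complex, at 1022 and 914 in xSGK1 embryos against 1604 and 1396 in control embryos (-0.62 ± 0.13, adjusted p = 0.0413). Of all probe sets 3.91% were called lower and 4.09% higher. The 41 ribosome assembly genes had a median of -0.15, with 22 lower in both experiments. In the blocked fit 4 fell and 0 rose. One was rrn3.L, whose protein recruits RNA polymerase I to ribosomal DNA and which passed the signal filter only through its control arrays. It measured 104 and 41.7 in xSGK1 embryos against 301 and 174 in control embryos (-1.56 ± 0.20, adjusted p = 0.0232). Rpf2.S, which works with the 5S particle in yeast, changed by -1.01 ± 0.14 (adjusted p = 0.0241) and nop16.S, a nucleolar protein, by -1.08 ± 0.15 (adjusted p = 0.0241).

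Genes for the proteins of the mitochondrial ribosome, which share the name but not the organelle, lay on the other side of 0. Their median over 34 genes was 0.12, near the 0.04 of all probe sets, with 9 lower and 17 higher in both experiments. Of all probe sets 31.9% were lower and 40.8% higher in both. In the blocked fit 0 fell and 1 rose, where 3.91% of all probe sets were called lower and 4.09% higher. The gene that rose was mrps25.S, at 720 and 526 in xSGK1 embryos against 339 and 297 in control embryos (0.92 ± 0.16, adjusted p = 0.0315). Among 8 genes of growth signalling to the ribosome 1 fell, against the same 3.91%. It was larp1.L, the gene of the TOP-binding protein, at 1750 and 1397 in xSGK1 embryos against 2451 and 2659 in control embryos (-0.70 ± 0.14, adjusted p = 0.041). The targeted transcript sgk1.L measured 3071 and 3300 in xSGK1 embryos, against 2321 and 2839 in control embryos (0.31 ± 0.11, adjusted p = 0.126). Morpholinos act on translation or splicing, so the level of this mRNA does not check the knockdown. All adjusted p-values for these genes are from the blocked fit. Without the block 0 of them were called.

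**Figure D5:**
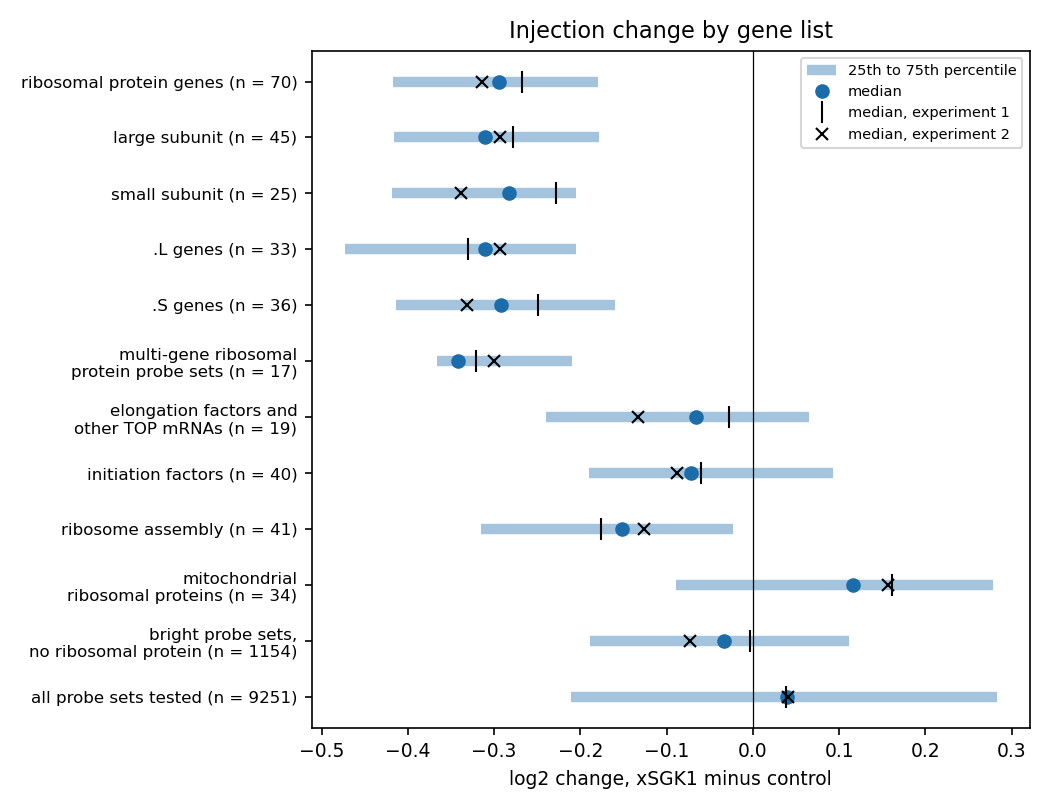
Log2 change, xSGK1 minus control, by gene list: dots are medians, thick bars run between the 25th and 75th percentiles, and the bar and cross marks are the medians in experiments 1 and 2. The ribosomal protein lists lie between -0.28 and -0.34, the initiation and elongation lists near -0.07, and the mitochondrial ribosomal proteins at 0.12.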

How the data were processed

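Per the labels' protocols, 100 ng of total RNA was amplified in a two-cycle assay for the Affymetrix array of the species. The authors deposited linear signal intensities from MAS5 (per the submitters' processing notes) and GCOS 1.4 (per the series text), scaled on each array to a 2% trimmed mean near 500. No genome build is named, so no coordinates are given. The platform annotation names 1 gene for 9304 of 15611 probe sets, several for 195 and none for 6112.

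Signals were rescaled to 500 and taken as log2(signal + 16). After 120 control probe sets and means under 100 were left out, 9251 probe sets were fitted with limma 3.58.1 in R 4.3.3 (lmFit, then eBayes with an intensity trend). Tests were two-sided, p-values were adjusted over all of them by Benjamini-Hochberg, and the threshold was 0.05. The fit laid down as the main one has no block. The replicate numbers pair the arrays, as the series text has both injections in every experiment and the xSGK1 and control arrays differed alike between experiments (Pearson 0.838 across probe sets, minimum 0.1). Values with experiment as a block are therefore given too. The labels do not say how far the experiments' embryos were separate, and the number of arrays limits the precision. Scripts were tested on simulated data.

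Genes and lists were chosen with earlier results of these data known. Named genes were those past the threshold in either fit, the 4 lowest and 3 highest changes and 3 brightest genes per subunit, genes not lower in both experiments, the 3 widest homeolog pairs and experiment differences, genes at the signal threshold, and up to 3 called genes per comparison list; others were named after their values were seen. The alternatives were other offsets, filters, normalizations and variance models, the block, and each array left out. Figures were drawn with matplotlib 3.10.9.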

Additional observations from a re-analysis of the deposited data

Results flagged for a closer look

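The injection change took opposite directions in the 2 experiments for 3 of the 70 genes, and the difference between experiments was not tested. For rps12.S it was 0.19 in experiment 1 and -0.23 in experiment 2. For rps20.L, the dimmest of the 70, it was -0.11 and 0.18. For rps27.S it was 0.0030 and -0.051, and 3 dimmer probe sets of the same gene were lower in both experiments, with mean changes of -0.07, -0.21 and -0.28.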

How the results depend on the processing

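The replicate numbers pair the arrays as experiments, and the block decides the calls. In place of 0 calls without it, the replicate block gave 6 ribosomal protein genes, 740 probe sets and 62 homeolog pairs (150 pairs at an unadjusted p under 0.05). With the block the members called were 15 after cyclic loess, 12 with log2(signal + 64), 6 with log2(signal + 1), with means of at least 300 or with robust eBayes, 5 without cross-hybridising probe sets, 4 without a filter, and 0 after quantile normalization or without the intensity trend. In those settings that kept calls, the members called were all lower, while between 48.8% and 55.6% of all probe sets called were lower. After cyclic loess 15 of 70 members were called and 1531 of 9251 probe sets in either direction. With log2(signal + 64) these counts were 12 of 70 and 1136 of 9251. Without cross-hybridising probe sets 63 members were left. Rpl21.L and rpl35a.S were not among the 5 called there, and rps24.L was. Probe sets called with the block were 524 after quantile normalization, 1531 after cyclic loess, 664 without a filter, 490 at 300, 827 and 1136 with offsets of 1 and 64, 703 with robust eBayes, 543 without the trend and 775 without cross-hybridising probe sets. Homeolog pairs called were 98, 50, 47, 43, 78, 0, 96, 57 and 46 in the same order.

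The median of the members was -0.26 after quantile normalization and after cyclic loess, -0.36 with median scaling, which put the median of all probe sets at -0.03, and -0.34 over the multi-gene probe sets in place of the members, an alternative chosen after seeing the data. The large subunit median was -0.30 with log2(signal + 64), -0.29 after quantile normalization or cyclic loess, -0.38 with median scaling and -0.33 without the like-protein paralogs. With median scaling the .L median was -0.38 and the .S median -0.36. The single genes that changed sign there were near 0: rps27.S (0.032 after quantile normalization, 0.027 after cyclic loess), rps12.S (0.0084 after cyclic loess) and rps20.L (-0.018 after quantile normalization, -0.045 after cyclic loess, -0.029 with median scaling). The block with quantile normalization or cyclic loess gave these changes too.

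Leaving out 1 array each, without the block, gave medians between -0.55 and -0.015 for the members, -0.61 and -0.025 for the large subunit, -0.51 and 0.0055 for the small subunit, -0.61 and -0.064 for .L, and -0.57 and 0.035 for .S. It gave between 0 and 110 probe sets, between 0 and 5 pairs and 0 members called. The positive medians are those without the xSGK1 array of experiment 2. Of the named genes, 14 changed sign: rpl4.S (-1.55 to 0.19), rpl9.L (-0.21 to 0.0017), rplp2.S (-0.41 to 0.22), rpl22.S (-0.37 to 0.21), rps21.S (-1.02 to 0.021), rps27.S (-0.24 to 0.19), rps12.S (-0.25 to 0.22), rps20.L (-0.15 to 0.22), rps13.L (-0.45 to 0.031), rps19.S (-0.78 to 0.049), rps12.L (-0.97 to 0.14), rpl4.L (-0.85 to 0.11), rplp2.L (-0.98 to 0.36) and rpl22l1.L (-0.77 to 0.48). Each such reversal came without the control array of experiment 1 or the xSGK1 array of experiment 2. With 1 array left out and no block, the experiments are unbalanced, so part of the experiment difference enters each change.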
